A study of Mus musculus with 4 samples.

Results

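Some stretches of the accessible genome are crowded: accessible regions follow each other every kilobase or so, often over long stretches of a chromosome. Such dense runs were described here in ATAC-seq data of mouse regulatory T cells. A run was 8 or more consecutive regions on chromosomes 1 to 19 with each gap at most 5000 bp, and its members were the regions from 252 to 1999 bp wide. There were 999 runs, which held 12225 of the 82264 autosomal regions (14.9%). Of these, 8488 were members, out of 84476 regions in the series. A further 2890 regions of the runs were too narrow and 847 too wide for the rule. The other 44633 autosomal regions of the same width range, outside runs, served for comparison. The rule uses positions and widths only, and no measured level.

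The study compared 2 libraries of mice with the long noncoding RNA gene Flicr intact (Flicr WT) and 2 of mice labelled as knockouts for it (Flicr KO). All 4 came from male mice of the NOD strain, 8 to 10 weeks old. In each, 50000 DAPI-negative, CD4+, TCRβ+ cells with CD25 in the top 50% of the high stain were sorted from spleen and lymph nodes and tagged with a transposase. The labels do not say whether replicates were separate mice, so every p-value here reflects the spread between libraries, and that spread may be technical. Nor do the sources used here say which part of Flicr is missing, or whether cells of several mice were pooled. The files carry no gene names or expression values, so the labelled cell type was not checked against markers.

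A transposase inserts where DNA is not wrapped in nucleosomes, so ATAC-seq reads pile up at promoters and enhancers that are open in the cells. Genes that set the identity of a lymphocyte, such as those of its antigen receptor, its cytokine receptors and its lineage transcription factors, are often surrounded by many enhancers close together. Regulatory T cells restrain immune responses and carry high CD25, a chain of the receptor for interleukin-2.

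Levels are in RPKM, the reads of a region scaled to its width in kilobases and to the reads of the library. As recovered from the RPKM values, the libraries held 19514512 to 41809276 reads. Of these, 24.2% to 35.1% fell in the regions, with Flicr WT replicate 1 lowest. Its median over all regions was 1.92 RPKM, against 2.46 to 2.54 RPKM in the other 3 libraries, so values as deposited tended to be low in that library. A member held a median of 32 to 67 reads per library, and 78.8% to 85.5% of read numbers over all regions were even, as when both mates of a pair are counted, so the reads are not independent fragments. Whether an open region is open in more cells or more open in each cell cannot be told apart in bulk samples.

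The runs were short in most cases and very long in a few. A run had a median of 10 regions and 7 members over a span of 22470 bp, and the longest had 71 regions over 140211 bp. Exactly 8 regions made up 266 runs, and 97 runs had 20 or more. Within runs the median gap was 1045 bp, against 5334 bp between all autosomal neighbours, and 34.1% of the span of a typical run lay inside regions. All runs together covered 26.2 Mb. Chromosome 1 had the largest share of its regions in runs, 20.2%, and chromosome 8 the smallest, 10.8%. Regions wider than the range were over-represented by count: 30.2% of the autosomal ones lay in runs, against 15.98% of the regions in the width range and 10.97% of the narrower ones. In 498 runs there was at least 1 such wide region. The narrowest member was 313 bp wide, since no autosomal region had a width between 252 bp and that value.

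Members of dense runs were less accessible than regions of the same width range outside runs, in every library. The median member was at 2.03 RPKM in Flicr WT replicate 1 and 2.66 RPKM in replicate 2. In Flicr KO it was at 2.66 RPKM in replicate 1 and 2.71 RPKM in replicate 2. Outside runs the medians were 2.51 and 3.27 RPKM in WT and 3.53 and 3.47 RPKM in KO, each above that of the members of the same library. On the log2(RPKM + 1) scale the members lay lower by 0.25 ± 0.043 (SD, n = 4 libraries). The exact two-sided sign-flip test gave p = 0.125, the smallest that 4 libraries allow.

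**Figure D1:**
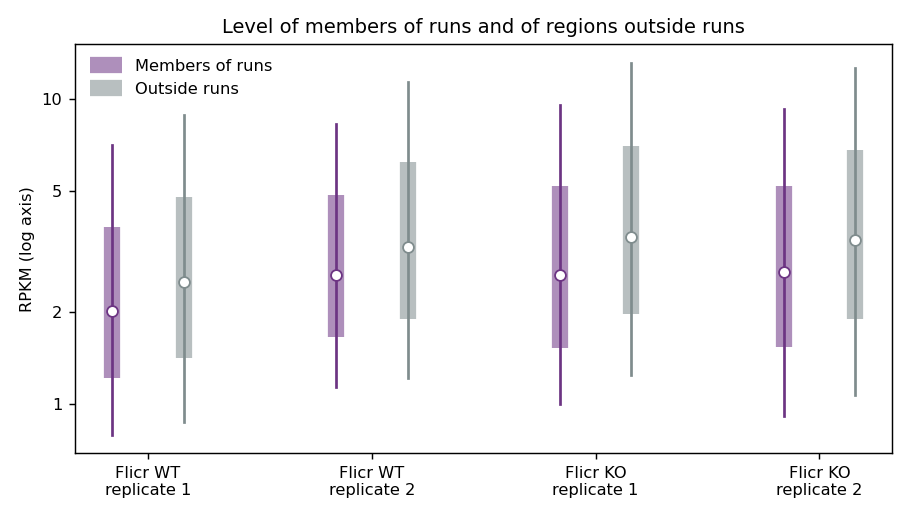
Level in RPKM (log axis) of the 8488 members of runs (purple) and of the 44633 regions of the same width range outside runs (grey) in each of the 4 libraries. Circles are medians, thick bars run from the 25th to the 75th percentile and thin lines from the 10th to the 90th. The median of the members lies below that of the outside regions in all 4 libraries.

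The gap was not smaller among regions of like width. Members were wider than the outside regions, with median widths of 584 and 494 bp, and wider regions had higher levels in both sets. Within bands of width the members lay lower by 0.33 ± 0.049 on the log2 scale (SD, n = 4 libraries). The difference was below 0 in every band in every library. It was smallest between 252 and 399 bp, where the members of Flicr WT replicate 2 were at 2.10 RPKM and the outside regions at 2.47 RPKM. It was widest between 1000 and 1499 bp, where the members of Flicr KO replicate 1 were at 3.76 RPKM and the outside regions at 6.16 RPKM. The wide regions that are no members showed the same order, with a median of 5.26 RPKM in runs and 7.61 RPKM outside.

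Highly accessible members were present all the same, alongside weaker members of their runs. The top decile of all regions opened at a mean of 9.12 RPKM, and 733 members reached it. That is 8.64% of members, against 14.4% of the regions outside runs. These 733 members were spread over 507 of the 999 runs. In the typical run the highest member was at 3.18 times the level of the median member, and from 1.62 to 7.55 times between the 10th and the 90th percentile of runs. The member with the most reads, not always the one highest in RPKM, held a median of 38.9% of all reads in members of its run. Of the 995 runs with at least 3 members, 635 had the same highest member in all 4 libraries. The highest member was also the widest in 27.4% of these runs.

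The level of a member differed with its place and with the size of the run. Longer runs hold a larger share of inner members, and place and size were not tested apart. Members at either end of a run had medians of 2.21 and 2.91 RPKM in WT and 3.09 and 3.12 RPKM in KO. Inner members, beyond the first 2 regions at each end, had 1.98 and 2.61 RPKM in WT and 2.55 and 2.62 RPKM in KO. The end members were therefore the higher ones in each of the 4 libraries, although they were narrower, with a median width of 538.5 against 592 bp. From runs of 8 regions to runs of 24 to 71 regions the median member fell from 2.18 to 1.77 RPKM in Flicr WT replicate 1 and from 3.05 to 2.10 RPKM in Flicr KO replicate 1. The highest member of a run did not follow this order, with a median of 8.66 RPKM in runs of 8 regions and 11.4 RPKM in those of 24 to 71. In runs of 9 to 11, 12 to 15 and 16 to 23 regions it was at 8.54, 11.2 and 9.16 RPKM. A longer run has more members from which its highest is taken, so these medians are not alike across sizes.

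Regions just outside the rule had levels near those just inside it. Chains of 7 regions, of which there were 319, held 1564 regions in the width range with a median of 2.69 RPKM over the 4 libraries, and the 266 runs of 8 held 1487 members with 2.76 RPKM. Members within 200 bp below the upper width limit were at 5.08 RPKM, and regions of runs within 200 bp above it at 4.52 RPKM. Among regions in the width range, those whose gap to the region before was within 500 bp below the limit were at 3.15 RPKM and those within 500 bp above it at 3.24 RPKM.

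Levels varied more within runs than between them. Run membership accounted for 4.25% of the variance of the members' mean log2 level, and blocks of 8 consecutive regions outside runs for 5.17% of theirs. For the difference between 2 replicates, run membership accounted for 1.55% in the KO pair and 4.22% in the WT pair. For the difference between a single KO and a single WT library, it accounted for 8.66% and 5.34% against Flicr WT replicate 1, and for 4.27% and 3.14% against Flicr WT replicate 2. The latter were close to the share in the WT pair. Regions are not independent replicates, so these shares are descriptions.

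Of the 10 runs with the most regions, 3 lay in windows listed for T cell genes (Tox, Foxo1 and Tra), and windows for 6 more were added after their positions were seen. No mm9 annotation was used here, so the windows that give these names were recalled, are wide enough to hold other genes, and were not checked against one. The run with the most regions was at chr4:6783259-6923469, in the window recalled for Tox, a transcription factor of the HMG-box family that acts in T cell development. It held 71 regions, 52 of them members, and 6 wide ones. Taken over the members, with each weighted by its width, the run was at 3.14 and 4.59 RPKM in WT and 4.98 and 4.77 RPKM in KO. Flicr WT replicate 1 was the low library, and both KO libraries lay just above the other WT library. The log2 difference of 0.29 (SE 0.20) did not pass the test described below (limma adjusted p 0.374).

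One sharp peak stood out of a low plain in this run. Of its 52 members, 32 had a mean under 2 RPKM and 4 had a mean above 9 RPKM. The highest, at chr4:6897504-6898206, was at 34.4 and 39.5 RPKM in WT and 49.6 and 49.2 RPKM in KO. Each KO value there exceeded each WT value, as in 32.3% of all regions. The log2 difference of 0.41 (SE 0.22) did not pass (limma adjusted p 0.572). The lowest member, at chr4:6818925-6819457, was at 1.16 and 0.464 RPKM in WT and 1.35 and 0.578 RPKM in KO, on 6 to 30 reads. It lay under the filter of the test by region and was not tested.

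The second longest run, at chr4:100833502-100938200, lay in the window recalled for Jak1, a kinase that serves many cytokine receptors, interleukin-2 receptor included. It held 56 regions and 37 members and was at 4.11 and 4.63 RPKM in WT and 4.86 and 4.91 RPKM in KO. The KO libraries were above the WT libraries by less than the error of the difference (log2 difference 0.13, SE 0.20). Its levels were more even: the highest member, at chr4:100840111-100841335, was at 14.4 and 15.5 RPKM in WT and 16.2 and 13.1 RPKM in KO, with overlapping groups. The lowest, at chr4:100895480-100895804, was at 0.738 to 1.11 RPKM on 7 to 10 reads.

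The third, at chr6:15646855-15753022, lay in the window recalled for Mdfic. It held 47 regions and 29 members and was at 3.58 and 5.41 RPKM in WT and 5.22 and 4.92 RPKM in KO, so the groups overlapped. Its highest member, at chr6:15732994-15733642, was at 12.8 and 15.2 RPKM in WT and 18.5 and 17.8 RPKM in KO, and its lowest, at chr6:15723458-15723893, was at 0.550 to 1.56 RPKM. Across the 118 members of these 3 runs, mean levels thus reached from 0.887 to 43.2 RPKM.

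**Figure D2:**
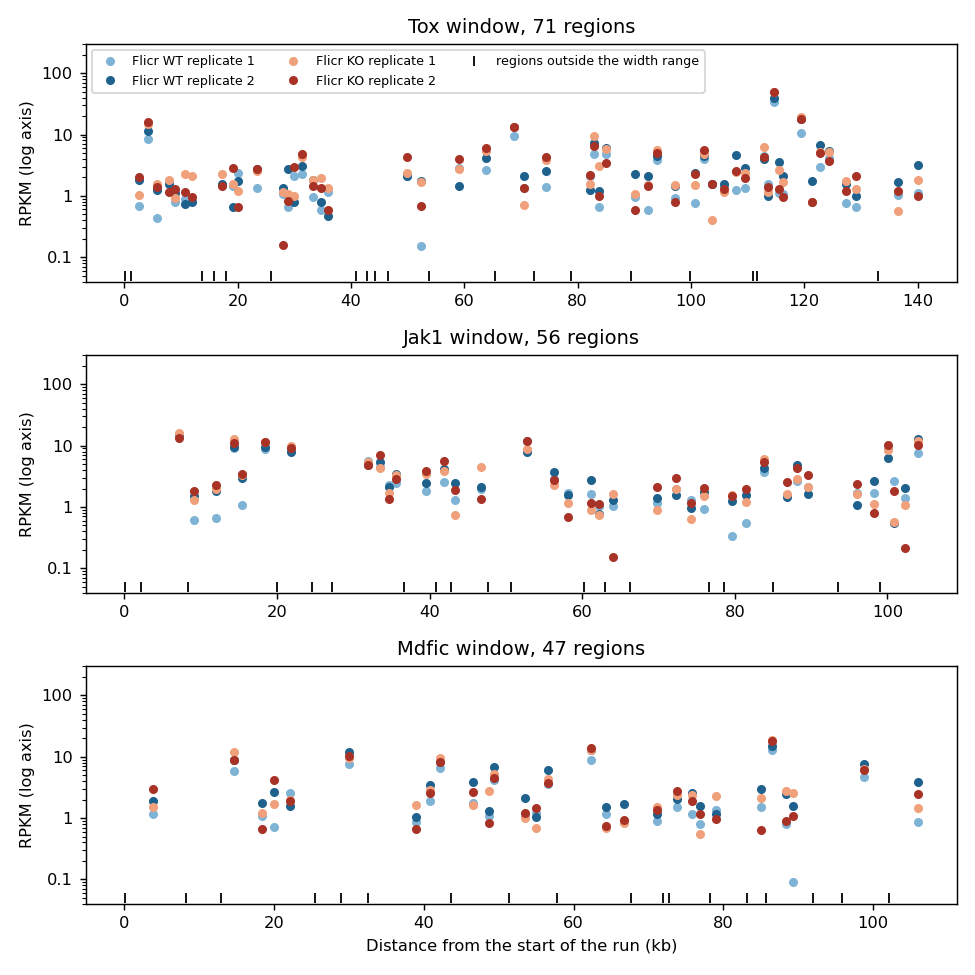
RPKM (log axis) of each member of the 3 runs with the most regions against its distance in kb from the start of the run, in the 4 libraries. Vertical ticks at the bottom mark regions of the run that are too narrow or too wide to be members. In the Tox window a single member reaches 34.4 to 49.6 RPKM while 32 of the 52 members have means under 2 RPKM.

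The other runs of the 10 largest that are described here had 39 to 45 regions each. The window recalled for Foxo1, a forkhead factor needed for T cell homing and regulatory T cell function, held a run of 45 regions at chr3:52053198-52158698. It was low and nearly the same in all libraries, at 1.66 and 1.74 RPKM in WT and 1.66 and 1.76 RPKM in KO. The window recalled for Prkcq, the kinase PKC-theta of T cell receptor signalling, held 43 regions at chr2:11080360-11161608, with 3.80 and 3.78 RPKM in WT and 4.26 and 4.32 RPKM in KO. The T cell receptor alpha locus (Tra) held a run of 41 regions at chr14:54784713-54859141, at 2.45 and 2.93 RPKM in WT and 2.60 and 2.53 RPKM in KO. The window of Cblb, a ubiquitin ligase that restrains T cell activation, held 40 regions at chr16:52030946-52135711, of which 12 were too wide to be members, and was at 2.80 and 3.33 RPKM in WT and 3.60 and 4.30 RPKM in KO. The window of Cd226, an activating receptor, held 39 regions with 2.43 and 3.99 RPKM in WT and 3.70 and 3.51 RPKM in KO. KO and WT did not overlap, with KO higher, in the Prkcq and Cblb runs, and the groups overlapped in the Foxo1, Tra and Cd226 runs. Such a KO excess without overlap was common, in 57.1% of all runs and 65.3% of all runs and blocks.

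A run of 42 regions at chr1:90109294-90207399 lay in none of the windows and was unlike the others. Its 23 members were flat and low, with mean levels of 0.866 to 3.98 RPKM, and 22 of them were under 2 RPKM. The run was at 1.69 RPKM in Flicr WT replicate 1, at 0.979 RPKM in replicate 2 and at 0.920 and 1.03 RPKM in KO. In 18 of the 23 members Flicr WT replicate 1 was the highest of the 4 libraries, although it was the lowest library in the median of all members.

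Runs were present in most of the windows recalled for T cell genes. A run counted for a window when any part of it overlapped the window. Of 42 windows listed, 35 held at least 1 run, 67 runs in all. The windows of Runx3, Id3, Cd8a-Cd8b1, Prdm1, Ikzf3, Batf and Bcl6 held none. Up to 5 runs fell in one window, in those of Bach2, a repressor of effector programmes, and of Cd28, Ctla4 and Icos, neighbouring genes of costimulatory and inhibitory receptors. The 67 runs had a median of 13 regions, against 10 in all other runs, and a median level of 3.50 RPKM, against 4.19 RPKM. The windows added later, such as those of Jak1, Mdfic, Prkcq, Cblb and Cd226, are not among the 42.

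The windows of Il7r, Trb and Bcl2 had the most accessible of the largest runs. The largest run of the Il7r window, which holds the gene of a receptor chain for interleukin-7, reached past the end of the window (chr15:9491392-9513264). That run was at 7.03 and 8.47 RPKM in WT and 9.60 and 9.72 RPKM in KO. That of the T cell receptor beta locus (Trb) was at 6.25 and 8.05 RPKM in WT and 9.77 and 8.41 RPKM in KO. That of Bcl2, which protects cells from death, was at 7.21 and 6.83 RPKM in WT and 7.38 and 8.04 RPKM in KO. None of the 3 was called in the comparison of the genotypes given further on.

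The windows that hold genes of CD25, CTLA-4 and Helios, proteins abundant in regulatory T cells, differed in level. The run of 17 regions in the window of Il2ra, the gene of CD25, was at 4.72 and 4.43 RPKM in WT and 5.15 and 5.45 RPKM in KO. The run of 30 regions in the window of Cd28, Ctla4 and Icos was at 4.10 and 5.59 RPKM in WT and 5.64 and 5.57 RPKM in KO. That of Ikzf2, which encodes the transcription factor Helios, held 34 regions and was at 2.49 and 3.46 RPKM in WT and 2.91 and 3.08 RPKM in KO. The run of 12 regions at chr15:78385421-78412773 had 7 of them in the window of Il2rb, another chain of the interleukin-2 receptor, and reached past its end. That run was low, at 2.36 and 1.80 RPKM in WT and 2.19 and 2.06 RPKM in KO.

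Low runs in these windows also lay near genes of T cell identity. The run of 22 regions in the window of Bcl11b, a factor of T cell commitment, was at 1.69 and 2.41 RPKM in WT and 1.89 and 1.77 RPKM in KO. That of Satb1, a chromatin organiser, held 27 regions and was at 1.59 and 2.26 RPKM in WT and 2.28 and 1.89 RPKM in KO. In both, the groups overlapped.

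**Figure D3:**
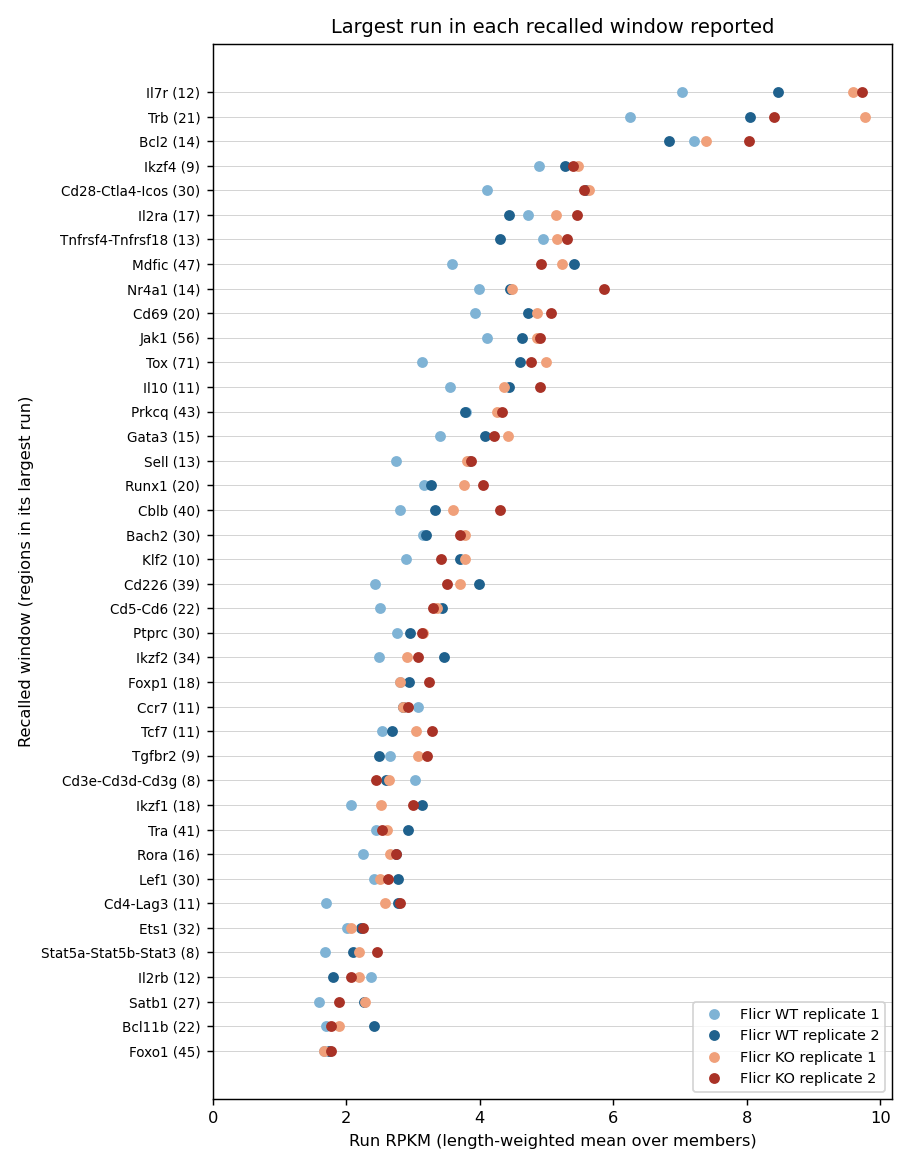
Run RPKM, the mean over members weighted by width, in each of the 4 libraries for the largest run in each window recalled for a T cell gene and reported here, ordered by the mean over libraries, with the number of regions in the run in parentheses. The Il7r, Trb and Bcl2 runs are highest, at 6.25 to 9.77 RPKM, and the Foxo1 run is lowest, at 1.66 to 1.76 RPKM.

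The runs with the highest and the lowest levels were outside these windows. The highest was at chr5:20916657-20944627, with 10 regions, 8 of them members, at 18.2 and 24.6 RPKM in WT and 32.0 and 27.9 RPKM in KO. In the next, at chr7:38959374-38986507, a single member held 90.5% of the reads in its 5 members, and the run was at 15.4 and 18.6 RPKM in WT and 28.2 and 26.2 RPKM in KO. Runs at chr6:72311999-72332778, chr2:13184785-13200177 and chr17:15655219-15667555 followed with means of 20.5, 18.4 and 16.2 RPKM. In these 5 runs 59.6% to 90.5% of the member reads lay in 1 member. The 5 lowest runs had means of 1.11 to 1.40 RPKM, with the run on chromosome 1 described above as the second lowest.

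Turning to the genotypes, nearly all runs were somewhat higher in KO as deposited, and 1 run passed the test. Run levels were fitted with limma on log2(RPKM + 1) together with 5572 blocks of 8 consecutive regions from outside runs. The median run was higher in KO by 0.21 on the log2 scale, and 92.6% of runs were above 0. The blocks were shifted further, with a median of 0.27, and centring the libraries on their own medians changed the 2 medians to −0.05 and 0.01. The shift common to runs and blocks, 0.26 on the log2 scale, was removed by the centring. Flicr WT replicate 1 carried much of it: the median run was at 0.09 without that library and at 0.33 without Flicr WT replicate 2.

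**Figure D4:**
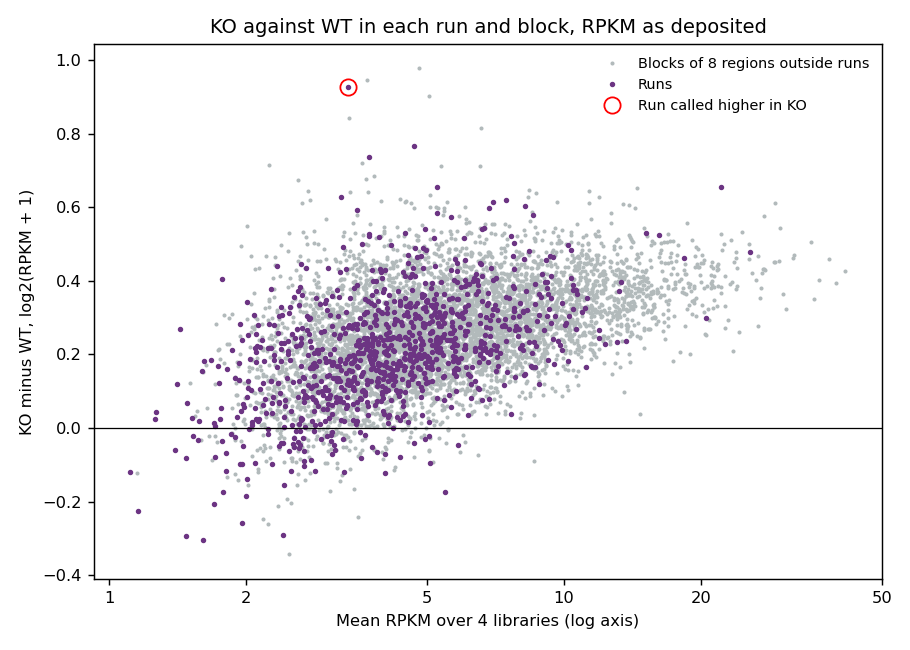
Log2 difference between KO and WT, RPKM as deposited, against mean RPKM over the 4 libraries (log axis) for each of the 999 runs (purple) and 5572 blocks of 8 regions outside runs (grey). The circled run on chromosome 16, at 0.93, is the only run called at an adjusted p under 0.05.

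Of the 999 runs, 1 was called higher and 0 lower at a limma adjusted p under 0.05, while of all runs and blocks 0.0761% were called higher and 0% lower. At unadjusted p under 0.05, 92 runs were higher and 0 lower, 9.21% and 0%, against 12.4% and 0% of all runs and blocks. After median centring 34 were higher and 74 lower, 3.40% and 7.41%, against 4.78% and 3.70% of all runs and blocks. KO was above WT without overlap, each KO value over each WT value, in 570 runs, 57.1%, against 65.3% of all runs and blocks. KO was below WT without overlap in 9 runs, 0.901%, against 0.426% of all runs and blocks. Fitted with limma voom on the recovered reads scaled to library totals, 2 runs were called higher, and 9 of all 6571 runs and blocks.

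The called run was a small one at chr16:38395287-38408058, outside the recalled windows, with 8 regions and 7 members over 12772 bp. It was at 1.59 and 2.43 RPKM in WT and 4.24 and 5.15 RPKM in KO, resting on 135 and 229 reads in WT and 514 and 292 reads in KO. The groups did not overlap, and the log2 difference was 0.93 (SE 0.19, 95% CI 0.56 to 1.30, limma adjusted p 0.00185). All 7 members had a higher mean in KO, and in 6 of them KO was above WT without overlap, against 32.3% of all regions. The run was picked for its difference and its level is the mean of these members, so their direction is no separate support. The widest member, at chr16:38403383-38404133, was at 2.83 and 4.65 RPKM in WT and 6.82 and 9.70 RPKM in KO. The member at chr16:38407742-38408058 was at 1.73 and 1.46 RPKM in WT and 3.94 and 4.86 RPKM in KO. None of the 7 passed by itself, with the smallest limma adjusted p at 0.295.

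The call on this run depended on the scaling, while the size of the difference changed less. After median centring the difference was 0.67 (limma adjusted p 0.0396), and it was 0.69 (0.0549) with equal totals of reads in regions. Without Flicr KO replicate 1 it was 1.04 and without Flicr KO replicate 2 it was 0.81. Without Flicr WT replicate 1 or 2 it was 0.73 and 1.131. Each of these fits sets 1 library against 2, so only the size of the difference is given.

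**Figure D5:**
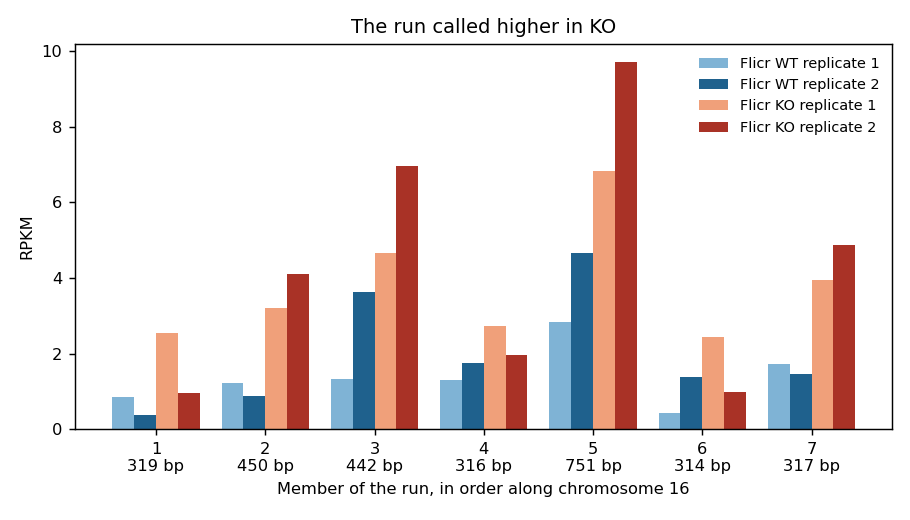
RPKM of the 7 members of the run at chr16:38395287-38408058 in the 4 libraries, in order along the chromosome with their widths. Bars are single libraries and start at 0. In 6 of the 7 members each KO bar is taller than each WT bar, in a run picked for its higher level in KO.

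The next 4 runs higher in KO were not called. The run at chr5:75762924-75785562 was at 2.67 and 3.80 RPKM in WT and 6.11 and 6.17 RPKM in KO (log2 difference 0.77, SE 0.20). That at chr2:70879079-70900008 was at 2.14 and 2.95 RPKM in WT and 5.28 and 4.50 RPKM in KO (0.74, SE 0.19). Each had a limma adjusted p of 0.0832. KO was above WT without overlap in both, as in 65.3% of all runs and blocks. The runs at chr2:60033311-60063185 and chr6:38745230-38764970 had differences of 0.63 and 0.66, with limma adjusted p of 0.291 and 0.306. After median centring the 4 differences were 0.51, 0.48, 0.37 and 0.40, and with all widths used that at chr2:70879079-70900008 was 0.39. Without Flicr WT replicate 1 the difference at chr2:60033311-60063185 was 0.37. A 251-bp region of the last of these, too narrow to be a member, was the only one of the 15 called regions of the whole table that lay in a run.

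The 5 lower runs with the smallest p were not called, had low levels and moved with single libraries and the scaling. The run at chr1:140727984-140745533 was at 1.47 and 2.32 RPKM in WT and 1.38 and 1.26 RPKM in KO (−0.31, SE 0.20, limma adjusted p 0.367). The runs at chr7:91787102-91800747, chr1:167585224-167605934 and chr4:82960384-82975788 had differences of −0.29, −0.29 and −0.26, and the flat run of 42 regions on chromosome 1 had −0.22. Their limma adjusted p lay between 0.369 and 0.438. For the last 2 of these, on chromosomes 4 and 1, the difference turned to 0.10 and 0.087 when all regions of the run were used whatever their width. Without Flicr WT replicate 2 the differences at chr1:140727984-140745533 and chr1:167585224-167605934 were −0.09 and −0.02, and without Flicr WT replicate 1 that of the flat run was −0.0025. Without Flicr KO replicate 2 those on chromosomes 7 and 4 were −0.10 and −0.14. Median centring moved all 5 further down, to between −0.56 and −0.48, with limma adjusted p from 0.195 to 0.465.

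None of the 67 runs in the 42 recalled windows was called, and the smallest limma adjusted p among them was 0.365. Their log2 differences ran from −0.10 in the Cd3e-Cd3d-Cd3g window to 0.47, with a median of 0.15. After median centring the median was −0.11 and 13 of the 67 were above 0. KO was above WT without overlap in 31 of the 67 and below without overlap in 0, where 65.3% of all runs and blocks were above and 0.426% below.

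By single region, none of the members was called. Of the 8488 members, 8204 passed the filter on a mean of 1.01 RPKM and were tested with all 80254 regions that passed it. At a limma adjusted p under 0.05, 0 members were higher and 0 lower, against 0.0187% and 0% of all regions tested. At unadjusted p under 0.05, 454 members were higher and 35 lower, 5.53% and 0.427% of the members tested, while of the tested regions outside runs 9.44% and 0.466% were. This balance depended on the scaling. After median centring 263 members were higher and 132 lower, against 3987 and 1950 of all 80254 regions tested. With equal totals of reads in regions it turned, with 123 members higher and 218 lower, against 2180 and 2691 of all regions tested. With limma voom scaled to the reads in regions it also turned, at 198 and 571 members, against 2116 and 3583 of all regions tested. The turn was therefore not particular to members. Limma voom called 1 member higher with either scaling of the reads, and 1 lower when they were scaled to the reads in regions. Over all regions tested it called 13 higher and 0 lower scaled to library totals, and 20 and 12 scaled to the reads in regions. The member it called higher, at chr7:38984634-38986507, carries the second most accessible run and was at 30.9 and 37.6 RPKM in WT and 59.6 and 55.4 RPKM in KO. The one it called lower, at chr12:15816174-15816980, was at 2.46 and 2.91 RPKM in WT and 0.653 and 1.27 RPKM in KO. Both are named here because of these values.

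The 5 members with the smallest p were higher in KO. That at chr3:126303590-126303902 was at 1.54 and 2.57 RPKM in WT and 7.82 and 7.88 RPKM in KO, on 14 and 26 against 102 and 48 reads (log2 difference 1.56, SE 0.32, limma adjusted p 0.0532). The member at chr6:65561884-65562465 was at 5.77 and 9.61 RPKM in WT and 17.7 and 18.9 RPKM in KO (1.19, SE 0.26, limma adjusted p 0.0947). Those at chr1:123515222-123515534, chr14:65721292-65721605 and chr4:34087482-34087794 had differences of 1.18, 1.33 and 1.37, with limma adjusted p of 0.134 to 0.144. In all 5 the lowest KO value exceeded the highest WT value, as it did in 32.3% of all regions. These members were picked for their differences, so this is no separate support.

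The 5 lower members of smallest p included a pair in one run on chromosome 10. The member at chr10:30382193-30382720 was at 2.01 and 3.34 RPKM in WT and 0.499 and 0.194 RPKM in KO (−1.43, SE 0.48, limma adjusted p 0.359). The one at chr10:30367069-30367383 was at 1.53 and 4.13 RPKM in WT and 0.305 and 0.653 RPKM in KO (−1.29, SE 0.47, limma adjusted p 0.414). Those at chr11:107305006-107305509, chr15:102065780-102066094 and chr11:87565206-87565580 had differences of −1.03, −1.15 and −0.94. In all 5 the KO values were below the WT values without overlap, as in 8.1% of all regions. They too were picked for their differences. Reads in KO were as few as 2 in 1 library.

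Members as a set shifted less toward KO than regions outside runs. Their median log2 difference was 0.17, against 0.24 outside. KO was above WT without overlap in 30.9% of the 8488 members, against 36.8% of regions outside runs and 32.3% of all regions. KO was below WT without overlap in 8.21% of members, 6.08% outside and 8.10% of all regions. The shift grew with level, and members had lower levels, so both sets were also compared within 5 bins of level that hold equal numbers of all regions. In the lowest bin the medians were −0.02 in members and 0.04 outside, and in the highest they were 0.30 and 0.33. The medians of the members were the lower ones by 0.03 to 0.06 in each of the 5 bins.

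Set against the outside regions of the same library, members were 0.22 lower in each WT library and 0.31 and 0.27 lower in KO, on the log2 scale. The difference between the genotypes was −0.07, and the 2 KO values lay below the 2 WT values. An exact permutation test, two-sided, gave p = 0.333, the smallest that 2 libraries against 2 allow. Members took 9.45% and 9.07% of the region reads in WT and 8.92% and 8.96% in KO, a mean of 9.26% ± 0.268 in WT and 8.94% ± 0.0256 in KO (SD, n = 2 each), again with an exact permutation p of 0.333. Flicr WT replicate 1 lay farthest from the KO libraries in this share. Without it the KO mean was below the remaining WT library by 0.133 percentage points, in place of 0.323.

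By size of run the differences between the genotypes were close. The median was 0.23 in runs of 8 regions and 0.17 in those of 24 to 71, and −0.03 and −0.08 after median centring. The single call fell among the runs of 8.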

How the data were processed

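The authors deposited, for each library, 1 RPKM value for each of 84476 regions of mm9. Tools listed, without their roles, in the submitters' processing notes are Bowtie2, Picard 1.130, SAMtools, HOMER 4.6 and DiffBind. Not given in the sources used here are the treatment of duplicates, any shift of reads for the transposase, and the calling and merging of regions, which decides how a dense stretch is cut into regions. RPKM was multiplied by the listed width less 1 bp and divided by the smallest such product in the library. This gave whole numbers for all values to a tolerance of 0.001. They were taken as reads, which assumes that the smallest product is 1 read, and the library totals rest on the same assumption.

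Runs and members were found by the stated rule. The RPKM of a run is the mean over its members weighted by width. Limma 3.58.1 (R 4.3.3, trend and robust options) was fitted on log2(RPKM + 1), by region after a filter at the 5th percentile of the mean and by run with blocks of 8 outside regions, with Benjamini-Hochberg adjustment over all features fitted. Folds on this scale understate changes at low RPKM. Values were also centred on each library's median. Shares and set differences were tested exactly in Python 3.11.15 with numpy 2.4.6, pandas 2.3.3 and scipy 1.17.1, and plots drawn with matplotlib 3.10.9.

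On simulated data of 6571 runs and blocks the fit recovered 48% of 1.5-fold and 99% of 2-fold changes (100 each), with 12 false calls. Over 80252 simulated regions it recovered 3% of 2-fold and 65% of 4-fold changes, with 4 false calls. Every simulated library had the same share of reads in regions, a spread set in advance and reads not counted in pairs. The real libraries differed in that share and had mostly even read numbers, so these recoveries do not give the power in the real data.

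Named were the 10 runs with most regions, the 5 highest and 5 lowest, the 5 of smallest p in each direction, the 5 members of smallest p in each direction, the highest and lowest member of the 3 largest runs, and the largest run of each window. The text gives their values in part, and 1 run among the 10 largest is not reported here. The first gene of each of the 48 recalled windows lies on the same chromosome in the GRCm38.p6 gene table, and all 31 pairs of neighbouring windows are in the same order there. The members, windows and tests were chosen with earlier results of these data known. Alternatives covered pseudocount, scaling, filter, test, block size, rule and each library left out. The sequences of the regions were not used here.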

Additional observations from a re-analysis of the deposited data

How the results depend on the processing

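The lower level of members, −0.25, kept its direction in 12 alternatives (−0.33 to −0.12), and was −0.27 to −0.24 with a library left out. The difference of that gap between genotypes, −0.07, ranged from −0.11 to −0.04 (−0.09 to −0.05 with a library left out), and that of the read share, −0.32 percentage points, from −0.51 to −0.13. None of these tests could reach the threshold by design. The rule itself gave 526 runs with 4170 members at gaps of 3000 bp, 1852 with 17814 at 10000 bp, 1902 for runs of 6 or more, and 361 with 4461 members for runs of 12 or more.

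Against 1 run called higher, limma called 0 with equal totals of reads in regions, the mean of the members' log2 values, voom scaled to region reads, and runs of 12 or more. It called 2 with gaps of 3000 bp, runs of 6 or more, voom scaled to library totals and no trend or robust option, 3 with blocks of 16 and at adjusted p under 0.10, and 92 at unadjusted p under 0.05. With 1 library fewer there were 0 (without either KO replicate), 22 (without Flicr WT replicate 1) and 601 (without Flicr WT replicate 2) runs higher, and 0, 1 and 2 lower in the same order. Each such fit sets 1 library against 2, and the lone library is assumed to vary like the other group. Members called higher, 0 at first, were 1 without the filter, 1 with either voom scaling, 2 at adjusted p under 0.10 and 454 at unadjusted p under 0.05, and 0, 11 and 424 with a library left out in that order. Members called lower were 1 with voom scaled to region reads, 35 at unadjusted p under 0.05, and 0 to 1 with a library left out. Except where a library was left out or the threshold changed, the cause was not tested.

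With the replicate number as a block, 0 runs and 1 member were called higher. The labels do not say that a number marks a shared mouse or day. Deviations of same-numbered libraries correlated at 0.0106 over all regions and −0.125 over runs and blocks. With 2 libraries per group, these correlations cannot tell whether same-numbered libraries share a mouse or day. Under the block the run on chromosome 16 had the same difference, 0.93, with a limma adjusted p of 0.0736. Of 320 refitted log2 differences of named runs and members, 289 kept direction and side of the threshold, 6 lost and 23 gained a call, and 2 changed sign, to 0.10 and 0.087, both with all widths used. Fits with a library left out are among the 320. Low depth limits the lowest members, which rest on fewer than 10 reads in some libraries.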
